A study of Rattus norvegicus with 200 samples.

Results

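The genes described here encode the receptors for glutamate, the main excitatory transmitter of the brain, and for GABA, the main inhibitory one. They were taken by name from the count table: the AMPA (Gria), kainate (Grik), NMDA (Grin), delta (Grid) and metabotropic (Grm) glutamate receptor genes, the GABA-A (Gabr) and the GABA-B (Gabbr) receptor genes, with a mean of at least 0.5 CPM, counts scaled to the size of the library, over all libraries. Of 20361 genes listed there 48 matched, 2 of these (Gabra6 and Grin2c) were set aside by the rule, 5 lay below the floor and 41 remained. They comprised 25 glutamate receptor genes, 15 GABA receptor genes and Grid2ip, which codes for delphilin, a scaffold protein of synapses that is no subunit itself but matches the name pattern. Just above the floor were Gabrg3 at 0.68 and Gabrq at 0.97 CPM, and just below it Gabrr2 at 0.40, Gabrr1 at 0.32 and Gabre at 0.27 CPM, while Gabrr3 at 0.10 and Gabrp at 0.0093 CPM lay farther below. Of the 41 genes 40 passed the filter on low counts and were tested, and Gabrg3 did not.

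AMPA, kainate and NMDA receptors are ion channels that carry excitatory currents, while metabotropic glutamate receptors act through G proteins. GABA-A receptors are chloride channels built mostly from alpha, beta and gamma or delta subunits, and GABA-B receptors pair GABBR1 with GABBR2 and act through G proteins. Receptor composition differs between brain regions: granule neurons of the cerebellum are known for GABA-A receptors with alpha6 and delta subunits, for the NMDA subunit GRIN2C and for mGlu4 (Grm4) on their axon terminals.

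RNA had been sequenced in bulk from brain cells of adult male Wistar rats (wild type, an outbred stock) that the labels call microglia, the macrophages of the brain. The 6 groups were a high-fat diet (HFD) with light-feeding (n = 33), dark-feeding (n = 33) or ad libitum food (n = 34), and chow with light-feeding (n = 33), dark-feeding (n = 33) or ad libitum food (n = 34). Each group was sampled at 6 Zeitgeber times (ZT), at 2, 6, 10, 14, 18 and 22 h from lights on, and each combination holds 5 to 7 libraries. The libraries held 3.78 to 11.6 M counts each. Since the labels tie no library to a rat of its own, the p-values speak only of the spread from library to library, which may be technical. HFD and chow libraries carry separate numbered title series, so diet and any processing that followed those series cannot be told apart. Libraries of the same group and time often have neighbouring title numbers. When neighbours (numbers at most 2 apart) were summed, each group of 33 or 34 libraries came down to 12 to 17 runs, and each comparison was also fitted with runs as the unit.

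The libraries held RNA of several cell types. In FPKM, which scales fragments by transcript length and depth, the median of 19 microglia markers was 51.5 over the libraries (range 28.9 to 107), and Csf1r, a defining receptor of microglia, stood at a median of 85.7 FPKM (47.5 to 163). The median of 12 oligodendrocyte markers was 202 FPKM (102 to 356), of 10 cerebellar granule neuron markers 72.0 (54.7 to 95.8) and of 15 general neuron markers 77.9 (58.3 to 97.8). No marker gene was at 0 in every library. In bulk RNA fewer cells of a type and less RNA per cell cannot be told apart. By their scores on these marker lists 12 libraries lay more than 3 SD from their own group and time, 10 of them on chow, and every comparison was also computed without them.

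The receptor genes spanned a wide range of levels, led by subunits known from cerebellar granule neurons. Grm4, an inhibitory autoreceptor of group III, had the highest mean among members, 376 ± 67.3 FPKM (SD, n = 200; range 152 to 577), followed by Gabrd, the delta subunit of extrasynaptic GABA-A receptors, at 375 ± 41.2 FPKM, and by Grin1, the obligatory NMDA subunit, at 310 ± 27.3 FPKM. The first 2 means differed by less than their spread. The genes set aside by the rule stood higher than every member: Gabra6 averaged 598 ± 79.6 FPKM and Grin2c 420 ± 62.3 FPKM. The level of the other NMDA subunits was far lower, from 5.52 ± 1.28 FPKM for Grin2a to 0.53 ± 0.19 FPKM for Grin3b.

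Within the other classes the order was as follows. Among AMPA subunits Gria4 was highest at 130 ± 16.9 FPKM and Gria1 lowest at 8.83 ± 1.73 FPKM, with Gria2, the subunit that limits calcium entry, at 80.7 ± 10.2 FPKM. Among kainate subunits Grik5, which needs a partner to form a channel, led at 66.0 ± 8.75 FPKM, while Grik3 was lowest at 3.01 ± 0.86 FPKM and did not differ from Grik1 (3.02 ± 0.48 FPKM) beyond its spread. Grid1, a delta receptor, was low at 5.76 ± 0.98 FPKM. In the metabotropic groups Grm5, which couples to calcium release, was at 2.75 ± 0.56 FPKM, Grm3 (26.7 ± 5.45 FPKM) stood above Grm2 (5.42 ± 1.34 FPKM), and Grm8 was the lowest of group III at 1.45 ± 0.54 FPKM.

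Levels of GABA-A subunits also differed within each class. Among alpha subunits Gabra4 was at 11.8 ± 1.69 FPKM and Gabra2 at 7.02 ± 1.40 FPKM. Gabra3 was the lowest at 3.78 ± 0.86 FPKM and did not differ from Gabra5 (3.83 ± 1.01 FPKM) beyond its spread. Gabrb2 led the beta subunits at 47.2 ± 9.23 FPKM, and Gabrb1 was lowest at 2.44 ± 0.47 FPKM. Gabrg1 stood at 7.31 ± 1.41 FPKM, while Gabrg3 was at 0.48 ± 0.25 FPKM and listed at 0 in 6 libraries. Gabrq, the theta subunit, was the lowest member at 0.20 ± 0.10 FPKM and was listed at 0 in 1 library. Of the GABA-B pair Gabbr1 was at 234 ± 11.9 and Gabbr2 at 36.5 ± 3.61 FPKM.

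**Figure D1:**
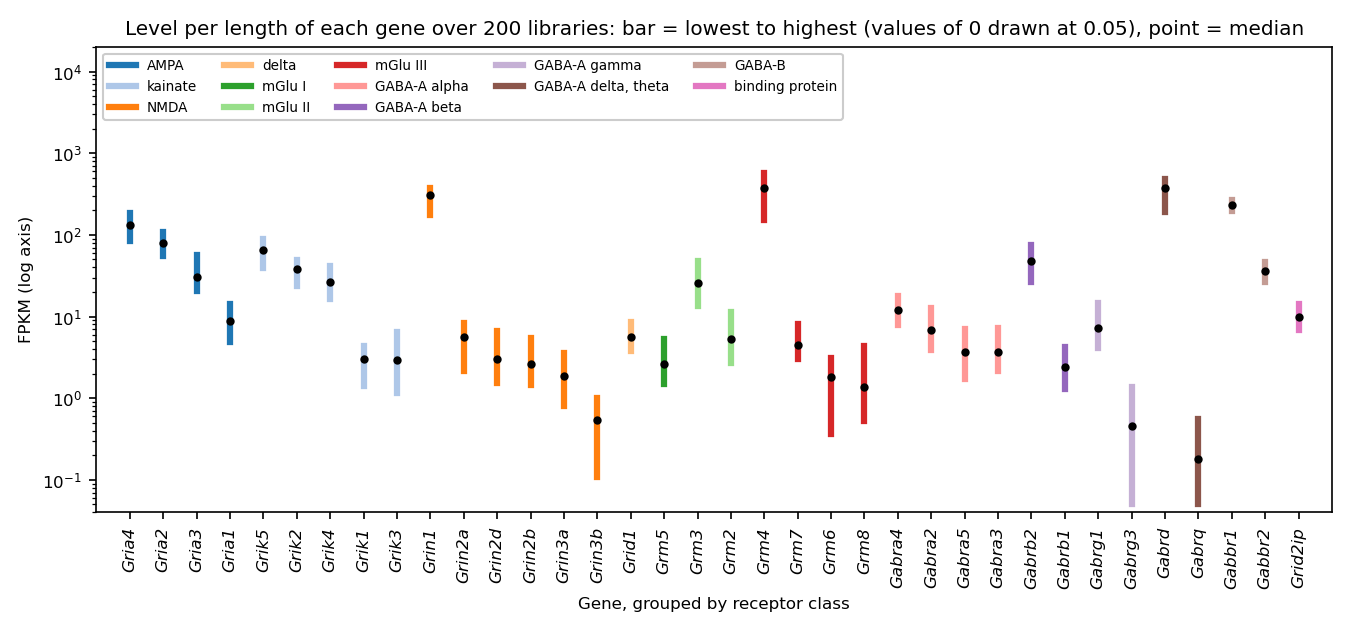
FPKM of 36 of the 41 genes on a log axis, grouped by receptor class and ordered by mean within it. Bars run from the lowest to the highest of 200 libraries with 0 drawn at 0.05, and points mark the median; Grm4, Gabrd, Grin1 and Gabbr1 lie highest, and Gabrq lies lowest.

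Between libraries the receptor genes varied with the markers of different cell types. Each gene's log2 CPM was correlated with the mean log2 CPM of 10 marker lists over 200 libraries after the mean of each group and time had been removed, in 410 pairs, of which 265 passed an adjusted p of 0.05 by a permutation test of 100000 resamples. Unless stated otherwise the permutation p of the pairs below was 1e-05 for both coefficients, the smallest these resamples can give, with an adjusted p of 3.2e-05 for Pearson's r and 3.4e-05 for Spearman's rho. The scores share libraries and are correlated with each other, so a pair is no measure of the cell of origin.

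The oligodendrocyte score was the best match of 2 members, Grm3 and Grik4. Grm3, which codes for mGlu3, had r = 0.87 and rho = 0.85, with r = 0.86 without the 2 libraries farthest from the median score, 0.87 within the chow series and 0.87 within the HFD series. Grik4, a kainate subunit, had r = 0.79 and rho = 0.77, with r = 0.77 without those 2 libraries, 0.81 on chow and 0.77 on HFD. Gabrg1 was the third member with a positive correlation past the threshold, at r = 0.27 and rho = 0.24, with permutation p = 0.00052 and 0.0015, adjusted p = 0.0011 and 0.0033, and r = 0.25 without the 2 libraries, 0.25 on chow and 0.30 on HFD. Of the 41 genes 35 were correlated with the oligodendrocyte score negatively past the threshold, Gria3, an AMPA subunit, most strongly at r = -0.70 and rho = -0.68 (r = -0.67 without the 2 libraries, -0.73 on chow and -0.68 on HFD).

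The granule neuron score was the best match of 12 members, with r between 0.30 and 0.60, among them Gria2, Gria4, Grik2, Grin1, Grin2a, Grm4, Grm6, Gabrb2 and Gabrd. For Grin2a r was 0.60 and rho 0.50 (r = 0.55 without the 2 farthest libraries, 0.67 on chow and 0.46 on HFD). For Gabrb2, the beta subunit of the most common GABA-A receptor, r was 0.60 and rho 0.44 (0.57 without the 2 libraries, 0.70 on chow and 0.44 on HFD). Grm4 was less closely tied to this score, at r = 0.39 and rho = 0.30, with permutation p = 0.00019 and 0.00025, adjusted p = 0.00046 and 0.00066, and r = 0.36 without the 2 libraries, 0.36 on chow and 0.45 on HFD.

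The interneuron score was the best match of 21 members, with r from 0.15 to 0.76. Grm2, a group II receptor known from cerebellar Golgi cells, led this group at r = 0.76 and rho = 0.77 (0.75 without the 2 farthest libraries, 0.78 on chow and 0.75 on HFD). The general neuron score was the best match of 3 members, among them Gabra4 and Gabrb1, at r = 0.54 to 0.63. The oligodendrocyte precursor score was the best match of 1 member, Gabbr1, at r = 0.34, with its permutation p not given here. Gabrg1, a GABA-A subunit found in glia as well as neurons, had r = 0.46 and rho = 0.41 with Purkinje cell markers (0.42 without the 2 libraries, 0.47 on chow and 0.46 on HFD). Its r with astrocyte and Bergmann glia markers was 0.40 and its rho 0.36 (0.35 without the 2 libraries, 0.41 on chow and 0.40 on HFD). None of the 41 genes had the microglia score as its best match, that is, the score with the highest r. With the microglia score 3 genes were correlated positively past the threshold and 23 negatively, with r from -0.54 to 0.51 over the 41 genes.

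**Figure D2:**
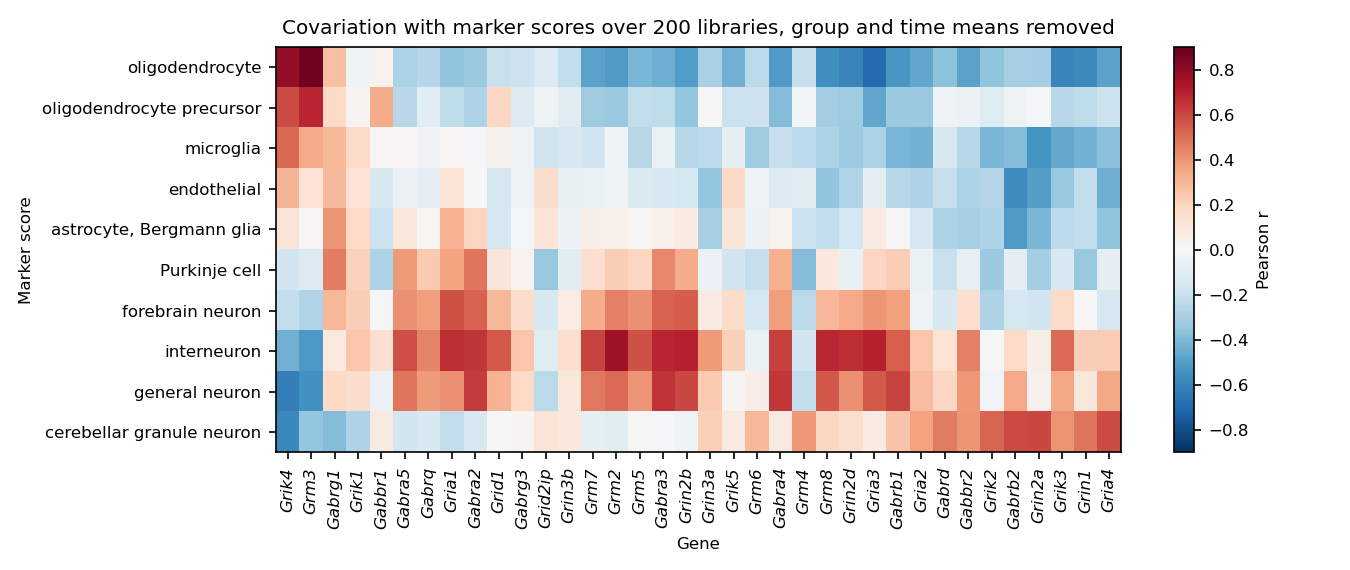
Pearson r of 36 of the 41 receptor genes (columns) with 10 marker scores (rows) over 200 libraries after group and time means were removed, red for positive and blue for negative. Grik4 and Grm3 at the left are red for oligodendrocytes and blue for neurons, while the genes at the right are red for cerebellar granule neurons.

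HFD was set against chow within each feeding schedule, a contrast in which diet and title series cannot be told apart. Where receptor genes passed the test, most were higher on HFD, and differences were small, the largest being 1.37-fold for Gabrb2 under light-feeding. Under ad libitum feeding 6 of 40 tested members passed, 5 higher and 1 lower, where 20.1% of all 14393 genes passed (9.96% higher and 10.1% lower). Under dark-feeding 15 passed, 14 higher and 1 lower, where 45.9% of all genes passed (22.8% higher and 23.1% lower). Under light-feeding 20 passed, 16 higher and 4 lower, where 50.3% of all genes passed (25.1% higher and 25.1% lower). The median log2 fold change (log2FC) of the members on HFD over chow was 0.07 ad libitum, 0.10 with dark-feeding and 0.07 with light-feeding, where all genes had -0.01 in each. In total the share of members called lay near or below the background, and the direction was mostly upward, which was not tested for the list. Over all genes long transcripts were more often called higher on HFD than short ones, and the members are long, as given below.

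Members called higher in all 3 comparisons included Gria2, Grin2a, Grm3 and Gabrb2, and the only one called lower in all 3 was Grik5. The ranges of HFD and chow libraries overlapped for each of the 40 members in each comparison.

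Grm3 ranged over 148, 180 and 297 CPM (lowest, median and highest library) on HFD ad libitum, and over 89.0, 145 and 245 CPM on chow ad libitum. The groups overlapped, with the HFD median above the chow median, and the mean was higher on HFD at 6 of 6 times (log2FC 0.31, SE 0.06, adjusted p = 0.00056 by edgeR's quasi-likelihood test). With dark-feeding it was at 135, 190 and 272 CPM on HFD and at 101, 138 and 251 CPM on chow (log2FC 0.41, SE 0.07, adjusted p = 1.1e-06). With light-feeding it was at 136, 189 and 256 CPM on HFD and at 102, 149 and 225 CPM on chow (log2FC 0.38, SE 0.07, adjusted p = 4.5e-06). Oligodendrocyte markers, which Grm3 followed between libraries, were higher on HFD for 3, 8 and 8 of 12 genes in these comparisons, with median log2FC of 0.14, 0.20 and 0.20, and 0 of 12 were lower. With the scores of neuron, astrocyte, oligodendrocyte and microglia markers in the model the log2FC of Grm3 was 0.12 (adjusted p = 0.094), 0.16 (0.019) and 0.23 (0.00039).

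Grin2a, the NMDA subunit of mature neurons, was at 27.3, 51.4 and 63.7 CPM on HFD ad libitum, and at 19.0, 39.2 and 64.6 CPM on chow ad libitum. Its range on HFD lay within that on chow, with a higher median (log2FC 0.32, SE 0.08, adjusted p = 0.0025). With dark-feeding it was at 38.0, 49.6 and 59.7 CPM on HFD and at 16.6, 38.7 and 61.4 CPM on chow (log2FC 0.40, SE 0.07, adjusted p = 5.4e-06). With light-feeding it was at 25.6, 51.7 and 67.9 CPM on HFD and at 22.0, 41.0 and 63.6 CPM on chow (log2FC 0.39, SE 0.07, adjusted p = 5.1e-06). The chow libraries spread down to lower values than the HFD libraries in all 3 pairs. With the marker scores in the model the log2FC was 0.25 (adjusted p = 0.034) under ad libitum feeding, 0.08 (0.57) under dark-feeding and 0.21 (0.099) under light-feeding. That model held no granule neuron score, the best match of Grin2a.

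Gabrb2 was at 237, 375 and 555 CPM on HFD ad libitum, and at 204, 320 and 470 CPM on chow ad libitum (log2FC 0.22, SE 0.06, adjusted p = 0.0097). With dark-feeding it was at 293, 366 and 449 CPM on HFD and at 208, 290 and 439 CPM on chow (log2FC 0.32, SE 0.05, adjusted p = 2.5e-06). With light-feeding it was at 263, 387 and 529 CPM on HFD and at 187, 280 and 412 CPM on chow (log2FC 0.45, SE 0.05, adjusted p = 6e-10). All 6 time means were higher on HFD in each pair, and the libraries overlapped. Under ad libitum feeding the means on HFD and chow were nearly equal at ZT2 (401.3 and 400.9 CPM) and at ZT22 (373.8 and 373.7 CPM). With the marker scores in the model the log2FC was 0.17 (adjusted p = 0.050), 0.20 (0.024) and 0.31 (0.00091). That model held no granule neuron score, the best match of Gabrb2.

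Grik5, the kainate subunit KA2, moved the other way. It was at 128, 217 and 259 CPM on HFD ad libitum, and at 195, 237 and 277 CPM on chow ad libitum (log2FC -0.15, SE 0.04, adjusted p = 0.0055). With dark-feeding it was at 176, 222 and 288 CPM on HFD and at 191, 251 and 288 CPM on chow (log2FC -0.18, SE 0.04, adjusted p = 0.00014). With light-feeding it was at 167, 215 and 258 CPM on HFD and at 171, 247 and 312 CPM on chow (log2FC -0.21, SE 0.04, adjusted p = 1.5e-06). The medians on HFD lay below those on chow in all 3 pairs, with wide overlap. The lowest HFD ad libitum values of Grik5, Gabrb2 and Gria2 were all at ZT6, where 1 library stood apart by its marker scores. Whether they belong to that library is not given here. With the marker scores in the model the log2FC of Grik5 was -0.06 (adjusted p = 0.50), -0.10 (0.12) and -0.22 (0.00017). The interneuron score, the best match of Grik5, was not in that model.

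Gria2 was at 345, 577 and 706 CPM on HFD ad libitum, and at 339, 500 and 696 CPM on chow ad libitum (log2FC 0.16, SE 0.05, adjusted p = 0.012). With dark-feeding it was at 438, 540 and 709 CPM on HFD and at 396, 481 and 585 CPM on chow (log2FC 0.17, SE 0.04, adjusted p = 0.00014). With light-feeding it was at 413, 534 and 639 CPM on HFD and at 358, 479 and 617 CPM on chow (log2FC 0.13, SE 0.04, adjusted p = 0.0035). The lowest, median and highest library was higher on HFD in each pair, with wide overlap. With the marker scores in the model the log2FC under ad libitum feeding was 0.14 (adjusted p = 0.078). The granule neuron score, the best match of Gria2, was not in that model.

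The upstream sequences of genes that moved in opposite directions or with different cells are shown because members differ much in base composition there. RefSeq promoters of build GRCr8 (250 bases before the annotated start to 50 after it) were found for 25 of the 41 genes. Those of Gabrb2 (chr10:27439543-27439842, plus strand, higher on HFD in all 3 schedules), Grik5 (chr1:89794860-89795159, minus strand, lower in all 3) and Grik4 (chr8:52102014-52102313, minus strand, varying with oligodendrocyte markers) read as follows, 5′ to 3′ on the gene's strand. Capitals mark matches to the motifs named after them.
Gabrb2: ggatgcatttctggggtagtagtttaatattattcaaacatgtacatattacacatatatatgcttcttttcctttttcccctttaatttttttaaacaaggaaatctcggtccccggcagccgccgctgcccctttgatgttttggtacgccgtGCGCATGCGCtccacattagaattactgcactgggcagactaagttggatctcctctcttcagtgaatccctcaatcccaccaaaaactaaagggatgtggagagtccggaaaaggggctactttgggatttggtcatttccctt
Grik5: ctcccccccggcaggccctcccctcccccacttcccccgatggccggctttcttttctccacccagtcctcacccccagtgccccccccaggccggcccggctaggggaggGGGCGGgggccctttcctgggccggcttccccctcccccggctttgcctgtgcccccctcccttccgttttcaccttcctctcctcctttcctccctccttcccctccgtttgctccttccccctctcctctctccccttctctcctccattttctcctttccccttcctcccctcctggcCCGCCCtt
Grik4: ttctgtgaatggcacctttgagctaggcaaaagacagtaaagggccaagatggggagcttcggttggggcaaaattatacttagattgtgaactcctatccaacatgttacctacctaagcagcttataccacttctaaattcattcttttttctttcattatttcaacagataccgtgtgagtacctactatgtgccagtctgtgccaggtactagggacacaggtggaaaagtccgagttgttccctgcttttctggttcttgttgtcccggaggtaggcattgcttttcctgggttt
Motifs were searched on both strands, with positions counted from 1 at the 5′ end. A site for the factor NRF1 was found at 156 in Gabrb2, and in 2 of the 25 members (Gabrb1 is the other), against 4.71% of 27457 promoters of this length. The GC box GGGCGG was found at 112 and, on the opposite strand, at 293 in Grik5, and in 12 of the 25 members, against 34.9% of all promoters. The E-box CACGTG, known from clock-controlled genes, and the cAMP response element TGACGTCA were in 0 of the 25 windows, against 6.65% and 1.91% of all. No motif overlapped another in the windows printed. The GC content was 44% for Gabrb2, 69% for Grik5 and 44% for Grik4, and the median was 60.3% over the 25 members and 52.3% over all promoters. It was 75% for Gabbr1 and 78.7% for Gabbr2, both called higher on HFD under light-feeding. For Grid2ip and Grm6, called lower there, it was 65.7% and 56.7%. A link between base composition and direction was not tested.

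Other subunits passed in the restricted schedules. Gria4, the AMPA subunit with the highest level, was at 357, 460 and 530 CPM on HFD with dark-feeding, and at 325, 403 and 486 CPM on chow (log2FC 0.17, SE 0.03, adjusted p = 1e-05). Grin3a, a subunit that lowers the calcium flow of NMDA receptors, was at 3.35, 6.31 and 10.4 CPM on HFD, and at 2.39, 4.88 and 7.56 CPM on chow in the same schedule (log2FC 0.43, SE 0.08, adjusted p = 2e-05). In both genes the HFD group had the higher lowest, median and highest library, and the ranges overlapped.

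Under light-feeding Gria4 was at 366, 451 and 567 CPM on HFD, and at 284, 411 and 498 CPM on chow (log2FC 0.19, SE 0.04, adjusted p = 1.3e-05). Gabbr1, the subunit of the GABA-B receptor that binds GABA, was at 897, 1007 and 1098 CPM on HFD, and at 770, 941 and 1081 CPM on chow (log2FC 0.09, SE 0.02, adjusted p = 0.0003). Both were higher on HFD at 5 of 6 times, and their libraries overlapped. Gabbr1 best matched the oligodendrocyte precursor markers, whose differences by diet are given below, and that score was not in the marker model.

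Members lower on HFD under light-feeding, beside Grik5, were Grid2ip, Grm4 and Grm6. Grid2ip was at 25.4, 31.0 and 40.7 CPM on HFD and at 23.1, 35.7 and 47.9 CPM on chow (log2FC -0.20, SE 0.05, adjusted p = 0.00018). Grm4 was at 731, 956 and 1232 CPM on HFD and at 627, 1028 and 1391 CPM on chow (log2FC -0.13, SE 0.04, adjusted p = 0.0077). Grm6, known for its role in the retina, was at 1.67, 7.57 and 11.1 CPM on HFD and at 4.35, 8.42 and 12.6 CPM on chow (log2FC -0.23, SE 0.09, adjusted p = 0.038). The medians on HFD were the lower ones, and the ranges overlapped.

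By class, both GABA-B genes were called higher under light-feeding, Gabbr1 also under dark-feeding, and neither under ad libitum feeding. A difference between the light-feeding and ad libitum contrasts did not pass edgeR's test for either (adjusted p = 0.19 for Gabbr1 and 0.29 for Gabbr2). The beta subunit gene Gabrb2 was called higher in each schedule. Of the 14 tested GABA receptor genes 2, 5 and 6 were called under ad libitum, dark- and light-feeding, each of them higher on HFD. Of the 25 glutamate receptor genes 4, 10 and 13 were called, 3, 9 and 10 of them higher. Over all genes 20.1%, 45.9% and 50.3% were called, 9.96%, 22.8% and 25.1% higher. No difference between the classes was tested.

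**Figure D3:**
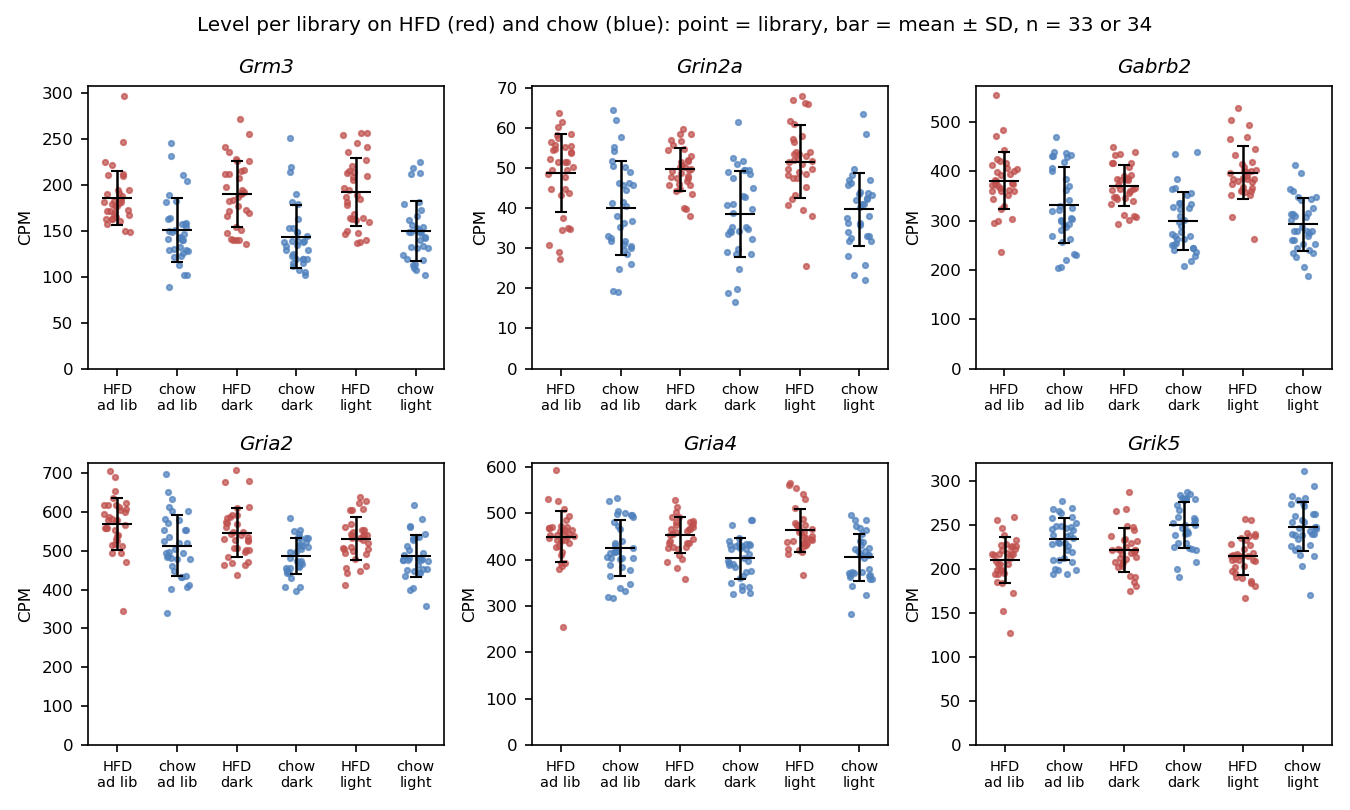
CPM of 6 receptor genes in each library on HFD (red) and chow (blue) under each schedule, with the mean ± SD. The 2 diets overlap in every panel, with Grm3, Grin2a, Gabrb2 and Gria2 higher and Grik5 lower on HFD in all 3 schedules.

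Other measures moved with the diet as well. Markers of astrocytes were lower on HFD for 0, 14 and 14 of 14 genes under ad libitum, dark- and light-feeding (median log2FC -0.12, -0.57 and -0.72), those of microglia for 8, 13 and 12 of 19 genes (-0.21, -0.31 and -0.25), and those of Purkinje cells for 0, 6 and 6 of 10 genes. Endothelial markers were lower for 1, 7 and 9 of 10 genes (median log2FC -0.26, -0.51 and -0.73) and higher for 0, 0 and 1, and forebrain neuron markers were lower for 0, 5 and 5 of 10 (-0.03, -0.19 and -0.22) and higher for 0, 0 and 2. General neuron markers were lower for 2, 9 and 7 of 15 genes (median log2FC -0.02, -0.11 and -0.08) and higher for 1 in each. Interneuron markers, the best match of 21 members, were lower for 1, 2 and 2 of 9 genes (0.01, 0.01 and 0.06) and higher for 0, 1 and 1. Markers of oligodendrocyte precursors were higher for 3, 6 and 6 of 9 genes (0.09, 0.15 and 0.10) and lower for 0. Granule neuron markers were higher for 2, 5 and 7 of 10 genes (median log2FC 0.02, 0.11 and 0.16) and lower for 0, 1 and 2. The summed granule neuron markers had ranges of 2495 to 4796, 3540 to 5275 and 3902 to 5414 CPM on HFD, and of 3017 to 5347, 2925 to 5034 and 2771 to 4549 CPM on chow, in the same order. The summed general neuron markers had ranges of 3544 to 5160, 3384.5 to 5022 and 3607 to 4853 CPM on HFD, and of 3802 to 5034, 3600 to 5252 and 3822 to 5032 CPM on chow. Those of the oligodendrocyte list had ranges of 13128 to 26991, 11112 to 23131 and 12595 to 23201 CPM on HFD, and of 8877 to 23956, 10598 to 22247 and 10797 to 21743 CPM on chow. Transcript length also moved with the direction: among the 3588 genes with the longest transcripts 21.4%, 47.3% and 44.3% were called higher on HFD, against 2.01%, 5.3% and 8.39% among the 3588 with the shortest. The members are long, with a median of 3411 bases against 2368 bases for all genes, and 0 of 40 were among the shortest. The part of cell type markers or length in the differences was not tested beyond the models given.

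With runs as the unit 0, 10 and 14 members were called under ad libitum, dark- and light-feeding. The share of all genes called with runs as the unit is not given in this report, so such counts have no background beside them. Without any call ad libitum, the adjusted p was then 0.083 for Grm3 and 0.16 for Gria2, while Gabrb2 was at 0.022 under dark- and 0.0002 under light-feeding.

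**Figure D4:**
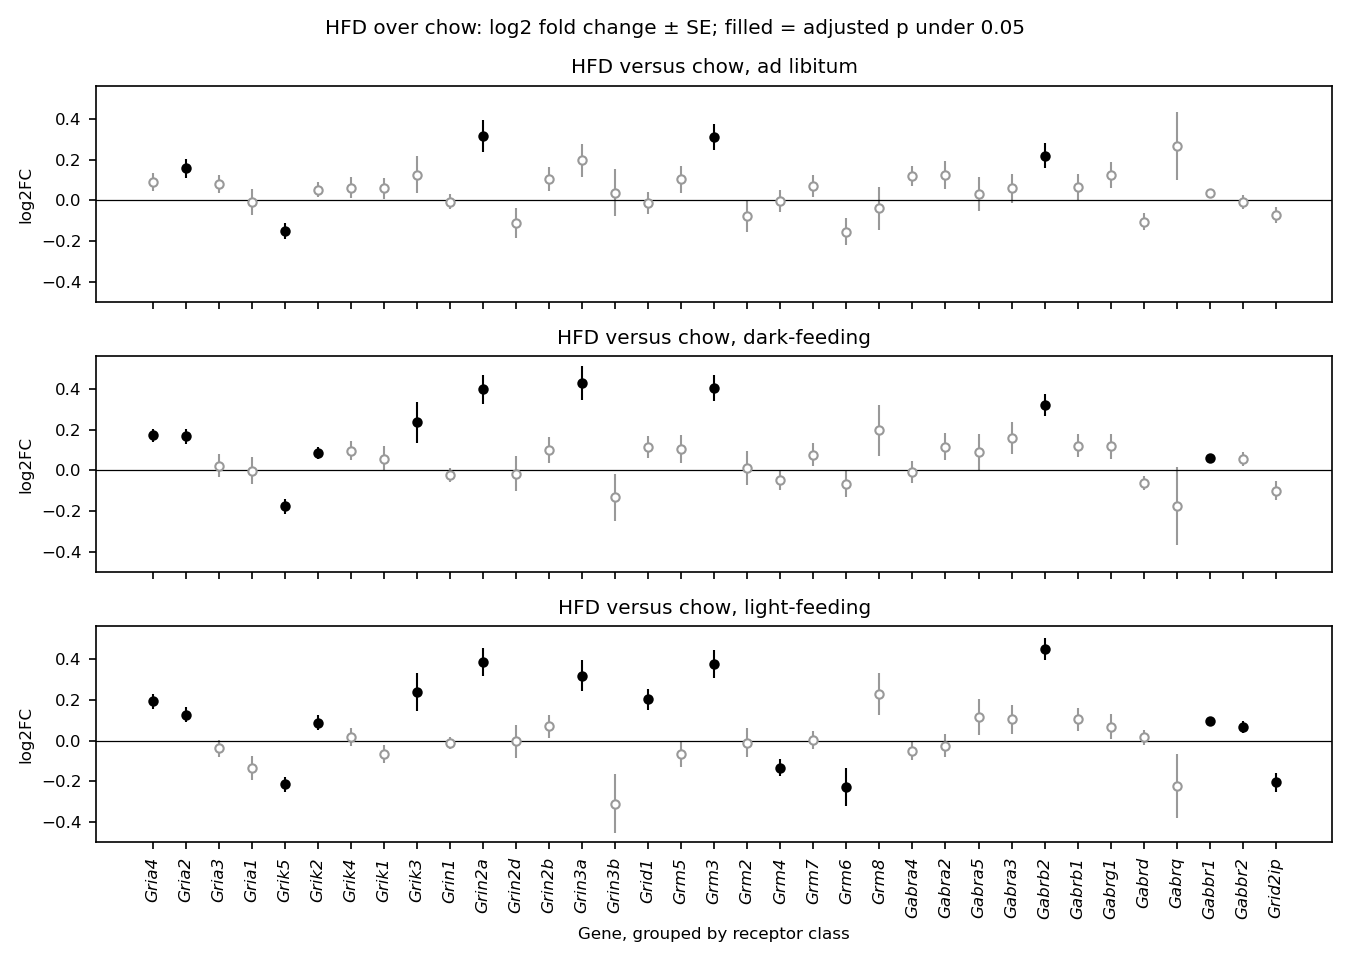
Log2 fold change of HFD over chow with its SE for 35 of the 40 tested genes under ad libitum, dark- and light-feeding. Filled points passed an adjusted p of 0.05, 5, 10 and 15 in the 3 panels, and most lie above 0.

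The feeding schedule was compared within each diet. The 3 chow groups enter more than 1 comparison, as do the 3 HFD groups, so these comparisons share libraries. On chow 0 of 40 members passed edgeR's test in dark-feeding against ad libitum, light-feeding against ad libitum, and light- against dark-feeding, with 3, 7 and 2 members at an unadjusted p under 0.05 and 0 members called by DESeq2 and by limma. Over all genes 0%, 1.6% (0.528% higher and 1.07% lower) and 0% were called. The members nearest to the threshold were Grik5 (log2FC 0.09, SE 0.04, adjusted p = 0.38) and Grm4 (0.11, SE 0.04, 0.39) for dark-feeding against ad libitum. Gabrb2 (-0.17, SE 0.06, 0.13) was among them for light-feeding against ad libitum. For light- against dark-feeding they were Gabrg1 (0.16, SE 0.06, 1) and Gabra2 (0.12, SE 0.06, 1).

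On HFD dark-feeding against ad libitum called 0 members (8 at an unadjusted p under 0.05, 4.7% of all genes called, 1.72% higher and 2.98% lower, 0 members by DESeq2 and limma), led by Grid1 (log2FC 0.14, SE 0.05, adjusted p = 0.12) and Gabra4 (-0.13, SE 0.05, 0.16). Light- against dark-feeding also called 0 members (1 at an unadjusted p under 0.05, 0.0834% of all genes, 0.0486% higher and 0.0347% lower, 0 members by DESeq2 and limma), led by Gabrb2 (0.10, SE 0.04, 0.39) and Grm4 (-0.10, SE 0.05, 0.47).

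Light-feeding against ad libitum on HFD called 4 members, 3 higher and 1 lower, where 10.7% of all genes passed (5.7% higher and 5% lower). Grid1, the delta receptor GluD1 that binds cerebellins, was at 15.0, 20.1 and 27.1 CPM with light-feeding, and at 12.6, 17.3 and 23.8 CPM with ad libitum food (log2FC 0.22, SE 0.05, adjusted p = 0.0046). Gabbr2 was at 170, 198 and 233 CPM with light-feeding, and at 127, 184 and 222 CPM with ad libitum food (log2FC 0.11, SE 0.03, adjusted p = 0.029). Light-feeding had the higher lowest, median and highest library in both, and the ranges overlapped. Gabra4, an alpha subunit of extrasynaptic receptors in the forebrain, was at 27.3, 39.6 and 51.0 CPM with light-feeding, and at 34.5, 45.5 and 60.0 CPM with ad libitum food (log2FC -0.17, SE 0.05, adjusted p = 0.015). It was lower at 6 of 6 times, with overlapping libraries. Within HFD most ad libitum libraries have low title numbers and the light-feeding libraries higher ones. With title number as a smooth term 0 members were called, and Grid1 turned to a log2FC of -0.04 (adjusted p = 0.90). The fit with runs as the unit called 0.

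Whether the HFD over chow difference itself differed between 2 schedules was tested as an interaction. For dark-feeding against ad libitum 0 members passed (0 at an unadjusted p under 0.05, 0.792% of all genes, 0.236% higher and 0.556% lower, 0 by DESeq2 and limma). The smallest p belonged to Grin3a (0.23, SE 0.12, adjusted p = 0.38) and Gabrq (-0.45, SE 0.25, adjusted p = 0.41), as a difference of log2FC. For light-feeding against ad libitum 2 passed, where 9.81% of all genes passed (5.98% higher and 3.84% lower). The HFD over chow difference of Grid1 was larger under light-feeding by 0.22 on the log2 scale (SE 0.08, adjusted p = 0.0496). With runs as the unit and with marker scores in the model 0 members passed, at adjusted p = 0.90 and 0.33 for Grid1, which also missed the threshold with DESeq2, with limma, with RLE scaling, without the filter on low counts, and without ZT2, ZT6, ZT10, ZT14 or ZT22.

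To ask which members had a daily rhythm, a wave with a period of 24 h was fitted within each group. Grm4 was the member called in most groups, 4 of 6, with fitted peaks between ZT22.3 and ZT23.1. In chow with dark-feeding its mean was 1244 ± 157, 960 ± 75.0, 944 ± 83.6, 732 ± 42.5, 1223 ± 157 and 1311 ± 179 CPM at ZT2, 6, 10, 14, 18 and 22 (SD, n = 5 or 6 libraries). The 5 libraries at ZT14 were low, and the fitted peak was 1.62-fold over the trough (adjusted p = 3e-05). In HFD with dark-feeding the fold was 1.36 (adjusted p = 0.0075), in HFD ad libitum 1.40 (0.016) and in chow ad libitum 1.34 (0.0078). In these 4 groups Grm4 also passed with the marker scores in the model, at adjusted p of 0.0007 to 0.0085. With time as a factor of 6 levels in place of the wave its adjusted p was 0.079 in HFD ad libitum and 0.053 in chow ad libitum. With runs as the unit its adjusted p was 0.089 in chow with dark-feeding, 0.072 in HFD with dark-feeding, 0.75 in HFD ad libitum and 0.065 in chow ad libitum.

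Over the 6 groups the count of rhythmic members differed. With ad libitum food 3 members were called on HFD (Grik1, Grm4 and Grik4, where 19.6% of all genes passed) and 3 on chow (Grm4, Gabrb1 and Gria4, 4.57% of all genes). With dark-feeding 5 were called on HFD (Grik4, Grm4, Gabrb1, Gabra2 and Grin2b, 27.5% of all genes) and 6 on chow (Grm4, Gabra5, Grik4, Grid1, Grin2a and Gabbr2, 22.9% of all genes). With light-feeding 0 were called on HFD by edgeR (8 at an unadjusted p under 0.05, 0.841% of all genes, 0 by DESeq2 and limma) and 15 on chow, where 20.3% of all genes passed. In HFD with light-feeding some members were called with time as a factor and with marker scores in the model, as given below. Grik4 was called in 3 groups, with fitted peaks between ZT4.2 and ZT5.3 and folds of 1.38 in HFD with dark-feeding, 1.18 in HFD ad libitum and 1.27 in chow with dark-feeding. With runs as the unit 0 members were called in each of the 6 groups, again without a share of all genes beside it.

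In chow with light-feeding 11 of the 15 rhythmic members had their fitted peak between ZT18 and ZT22 and the other 4 between ZT0 and ZT12. Grm3 averaged 133 ± 20.1, 115 ± 10.8, 140 ± 12.5, 152 ± 8.96, 171 ± 41.5 and 180 ± 32.6 CPM from ZT2 to ZT22 (SD, n = 5 or 6), with a fold of 1.48 and a peak at ZT18.7 (adjusted p = 0.0017). Gabrb2 averaged 266 ± 21.7, 235 ± 39.7, 254 ± 17.8, 340 ± 23.6, 295 ± 29.5 and 359 ± 39.3 CPM, with a fold of 1.42 and a peak at ZT18.8 (adjusted p = 0.0014). Both were lowest at ZT6 and highest at ZT22. Grid1 averaged 18.7 ± 1.62, 16.2 ± 2.57, 15.6 ± 1.5, 16.7 ± 1.32, 18.5 ± 2.40 and 20.4 ± 3.22 CPM, with a fold of 1.30 and a peak at ZT21.9 (adjusted p = 0.007). Grin2a, Gabbr1 and Gabbr2 also had peaks between ZT18 and ZT22, while Grik5, Gria3, Grm2 and Gria1 peaked between ZT0 and ZT12.

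Markers of other cells had a rhythm in the same group: 10 of 12 oligodendrocyte, 8 of 9 oligodendrocyte precursor, 7 of 14 astrocyte and 3 of 10 granule neuron markers passed. With the marker scores in the model 1 of the 15 passed, and without ZT6 3 passed.

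**Figure D5:**
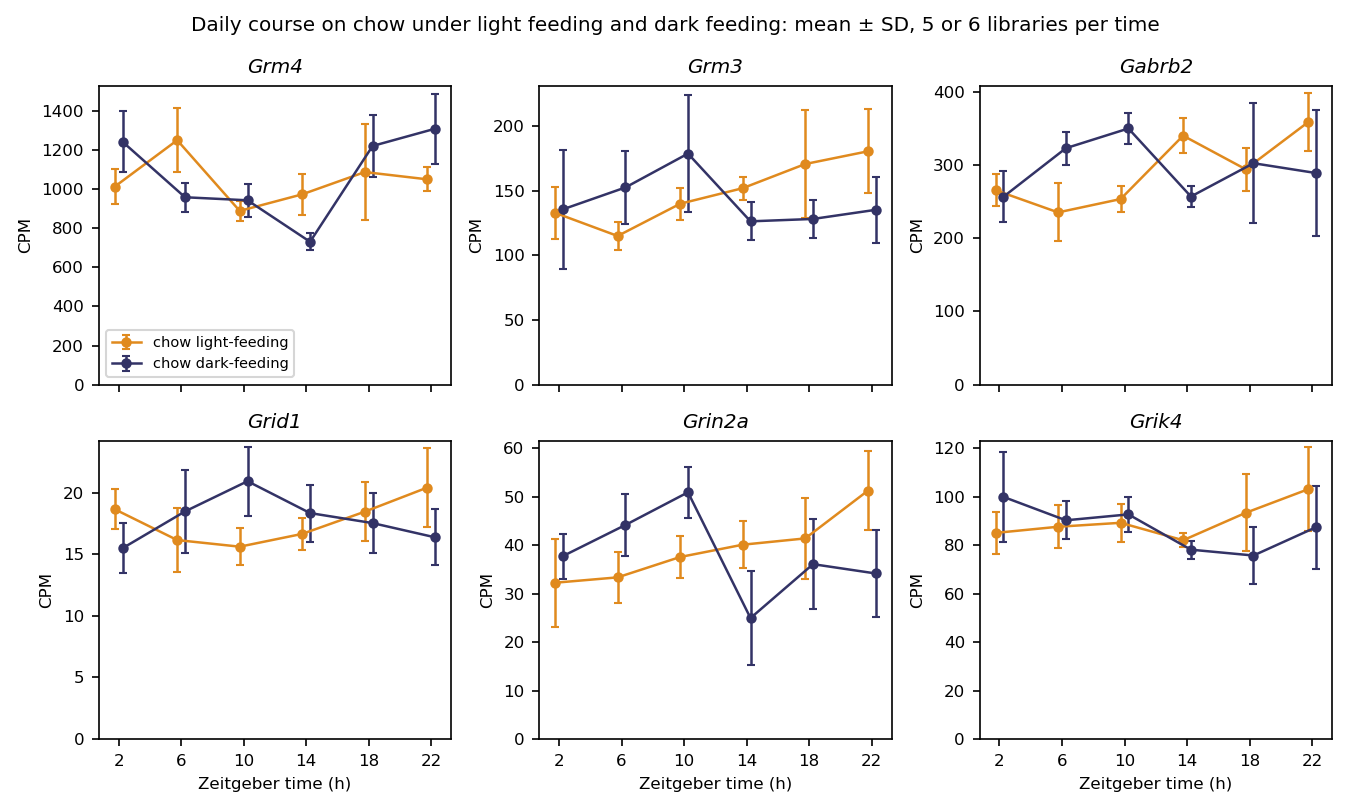
CPM of 6 receptor genes over Zeitgeber time on chow with light-feeding (orange) and dark-feeding (dark blue), as mean ± SD of 5 or 6 libraries, with the axis starting at 0. Grm3, Gabrb2, Grid1 and Grin2a are highest at ZT22 with light-feeding and at ZT10 with dark-feeding.

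Light- against dark-feeding on chow moved the daily course of 22 members past the threshold for a difference in rhythm, where 37% of all genes passed. Grin2a illustrates it. With light-feeding it averaged 32.3 ± 9.10, 33.4 ± 5.23, 37.6 ± 4.33, 40.1 ± 4.79, 41.4 ± 8.32 and 51.2 ± 8.16 CPM from ZT2 to ZT22. With dark-feeding it averaged 37.8 ± 4.65, 44.2 ± 6.37, 50.9 ± 5.20, 25.0 ± 9.70, 36.1 ± 9.27 and 34.2 ± 8.99 CPM (SD, n = 5 or 6). The fitted peaks were at ZT19.0 with light-feeding and at ZT6.5 with dark-feeding, and the adjusted p of the difference was 0.0014. Grid1, with fitted peaks at ZT21.9 with light-feeding and at ZT11.0 with dark-feeding, had the smallest adjusted p of a difference, 0.00014. With runs as the unit Grid1 (adjusted p = 0.040) and Grm3 (0.041) still passed, and the other 20 did not.

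On HFD the same contrast called 6 members, Gabrb1, Grid2ip, Grik2, Grin2b, Gabbr2 and Grik3, where 21.6% of all genes passed. HFD against chow under light-feeding called 6, among them Gabrb2, Grm3 and Grin2a, where 9.18% of all genes passed. Gabrb2 averaged 438 ± 55.2, 414 ± 94.3, 400 ± 40.5, 373 ± 12.2, 388 ± 28.3 and 374 ± 38.9 CPM from ZT2 to ZT22 on HFD with light-feeding, where the chow course given above was lowest at ZT6 (adjusted p of the difference 0.0048). HFD against chow called 0 members under ad libitum and under dark-feeding, with 8 and 9 at an unadjusted p under 0.05 and 0% of all genes called. Both of the contrasts with 6 called 0 members when runs were the unit.

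The partners of these receptors were counted from lists of auxiliary subunits, postsynaptic scaffolds, transmitter transporters and enzymes. Of 22 tested auxiliary subunit genes HFD against chow called 4 ad libitum (2 higher), 5 with dark-feeding (3 higher) and 12 with light-feeding (9 higher). Frrs1l, which helps to assemble AMPA receptors, was higher in all 3 (log2FC 0.20, 0.22 and 0.27, SE 0.05, 0.05 and 0.04, adjusted p = 0.003, 5.1e-05 and 7.8e-08). Of 27 scaffold genes 3, 13 and 16 were called, 0, 7 and 6 of them higher. Dlg4, the scaffold PSD-95, was lower in all 3 (log2FC -0.14, -0.21 and -0.24, SE 0.03 each, adjusted p = 0.00041, 1.2e-07 and 1.2e-09).

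Of 13 tested transporter genes 1, 8 and 9 were called, 1, 2 and 3 of them higher. Slc38a2, a glutamine carrier, was higher in all 3 (log2FC 0.14, 0.20 and 0.25, SE 0.03, 0.03 and 0.04, adjusted p = 0.0003, 5.5e-07 and 3.9e-07), and Slc6a13, the GABA carrier GAT2 of the meninges, was lower under light-feeding (log2FC -0.90, SE 0.10, adjusted p = 6.4e-11). Of 10 enzyme genes 4, 4 and 5 were called, 2, 1 and 1 of them higher. Glud1, glutamate dehydrogenase, was lower under dark- and light-feeding (log2FC -0.24 and -0.27, SE 0.03 and 0.04, adjusted p = 2.8e-08 and 4.3e-07). The same contrasts called 20.1%, 45.9% and 50.3% of all genes.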

How the data were processed

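Per the labels' protocols, the libraries keep strand and were made from RNA enriched for mRNA. The submitters' processing notes name build Rnor_6.0; for aligner and counter, no tool is given in the sources used here. Expected counts were deposited by the authors for 20361 genes, of which 8.03% of entries were not whole, so they were rounded, where the written design had foreseen raw counts. The authors also deposited FPKM values for 17611 genes, normalised by length and depth. Transcript lengths were computed from counts and FPKM. Depth limits the lowest members most.

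Counts were scaled by trimmed means (TMM) and tested in R 4.3.3 with edgeR 4.0.16 (quasi-likelihood, 14393 genes past filterByExpr, Benjamini-Hochberg adjusted p under 0.05 over all genes, time as a factor, libraries of both groups only). Rhythms were a 24 h cosine and sine, and their differences an interaction. DESeq2 1.42.0, limma 3.58.1 on log2(FPKM + 0.1), other scaling and filters, marker scores, runs and leaving out times were alternatives, and tests were checked on simulated data. The marker scores in the model were those of the general neuron, astrocyte, oligodendrocyte and microglia lists only. Libraries with identical counts were not found.

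The members and the gene lists were chosen with earlier results of these data known. Named members were up to 6 per direction and comparison by smallest adjusted p, or 2 by p where none passed, up to 4 per rhythm, the highest and lowest per class for levels, and up to 2 per partner list. Members called in all 3 diet comparisons, or described beyond that rule, were chosen after their values were seen. Some members are counted but not reported here by name. Correlations used Python 3.11.15 and numpy 2.4.6. Genes that overlap or share reads with copies are uncertain to the extent that estimation divided reads.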

Additional observations from a re-analysis of the deposited data

Results flagged for a closer look

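For 27 results listed here a test of the difference between groups passed. The HFD over chow difference was larger under light-feeding than under ad libitum feeding by 0.22 (log2) for Grid1, at an adjusted p of 0.0496. It did not pass with runs as the unit, marker scores in the model, DESeq2, limma, RLE scaling or no filter on low counts, nor without ZT2, ZT6, ZT10, ZT14 or ZT22. The daily course differed between HFD and chow under light-feeding for members that included, with the adjusted p in brackets, Gabrb2 (0.00476), Grm3 (0.0258) and Grin2a (0.0266). It differed between light- and dark-feeding on HFD for 6: Gabrb1 (0.0194), Grid2ip (0.0252), Grik2 (0.0306), Grin2b (0.0308), Gabbr2 (0.0396), Grik3 (0.0444). On chow it differed between light- and dark-feeding for members that included Grid1 (0.000135), Grm3 (0.000183), Gabbr2 (0.000513), Grin2a (0.00139), Gabrb2 (0.00149), Gabra5 (0.0023), Grm2 (0.00314), Gria4 (0.00533), Gabbr1 (0.00878), Gabrd (0.0113), Gria1 (0.0116), Grm4 (0.0121), Grid2ip (0.0141), Gabrg1 (0.0205), Grik4 (0.0238), Grin2b (0.0403) and Grin2d (0.0481). Between light- and dark-feeding on chow Grid1 and Grm3 passed with runs as the unit, and 0 members passed in the other 2 contrasts. The part of cell type markers in these differences was not tested beyond the models given in the report.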

How the results depend on the processing

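No paired analysis was possible because the labels give no replicate numbers that groups share. Of 272 recomputed counts 206 stayed within 1.5 times the count of the main analysis and 66 did not. Most were counts of called members, and a few were of members by the rule or of strongly correlated pairs. Of 470 recomputed values of named members 416 kept their direction and side of the threshold, 49 lost the threshold, 3 gained it and 2 reversed, both with title number as a smooth term: Gabrb2 on chow with light-feeding against ad libitum (log2FC 0.028), and Grid1 (-0.038) on HFD with light-feeding against ad libitum. The cause was not tested.

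The counts that moved were as follows, with no share of all genes given beside them. With runs as the unit (fewer units), HFD against chow ad libitum called 0, light-feeding against ad libitum on HFD 0, the rhythm in each group with calls 0, the diet by light-feeding interaction 0, and the rhythm difference of HFD against chow with light-feeding 0, of light- against dark-feeding on HFD 0 and on chow 2. With marker scores in the model HFD against chow ad libitum called 1, the rhythm tests 2 in HFD with light-feeding, 2 in HFD with dark-feeding, 1 in chow with light-feeding and 10 in chow with dark-feeding, the interaction 0, and the rhythm difference of HFD against chow 3 with light- and 1 with dark-feeding, and of light- against dark-feeding on HFD 2. Without the 12 libraries whose marker scores stood apart, rhythms numbered 2 in HFD with dark-feeding, 5 in HFD ad libitum, 11 in chow with dark-feeding and 10 in chow ad libitum, and the rhythm difference of HFD against chow with light-feeding 12. That setting, and runs for rhythms and interactions, were chosen after seeing the data.

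With time as a factor rhythms numbered 5 in HFD with light-feeding, 1 in HFD ad libitum and 14 in chow with dark-feeding. DESeq2 called 10 rhythms in chow ad libitum and 1 interaction, and limma 1 rhythm in chow ad libitum and 2 in HFD with dark-feeding. For the interaction limma called 2 members, both lower and neither among those called by edgeR. Without a filter on low counts 3 rhythms in HFD with dark-feeding and 0 interactions were called, and with RLE scaling 0 interactions. One fit over all libraries called 12 for HFD against chow ad libitum and 2 for light-feeding against ad libitum on chow. The title term called 4 for dark-feeding and 0 for light-feeding against ad libitum on HFD.

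Leaving out each time in turn gave 15 to 20 calls for HFD against chow with light-feeding, 13 to 20 with dark-feeding and 1 (without ZT18) to 11 (without ZT2) ad libitum, 0 to 5 for light-feeding against ad libitum on HFD (0 without ZT22) and 0 to 5 on chow (5 without ZT14 and 4 without ZT18), and 0 to 6 for the diet by light-feeding interaction (0 without ZT2, ZT6, ZT10 or ZT22, 5 without ZT14). Rhythms numbered 0 to 1, 2 to 5 and 1 to 6 on HFD with light-feeding, dark-feeding and ad libitum, and 3 to 18, 1 to 9 and 1 to 15 on chow in the same order, with 3 without ZT6 in chow with light-feeding and 15 without ZT6 in chow ad libitum. Depth limits the members with few counts most.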
